A study of Mus musculus with 2 samples.

Results

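The dynein genes of the mouse testis were taken as all genes whose symbol in the deposited table begins with Dnah, Dnaic, Dnali, Dnaaf, Dync or Dynl, or is Dnal1 or Dnal4, without pseudogenes. These were 41 of the 51868 rows. They comprised 15 axonemal heavy chains, 2 axonemal intermediate chains, 3 axonemal light or light intermediate chains, 4 assembly factors, 5 genes of cytoplasmic dynein-1, 2 genes of cytoplasmic dynein-2, 9 shared light chains and 1 transcript from the opposite strand of a heavy chain gene. Together they received 395277 UMIs (unique molecular identifiers, each counting 1 captured transcript), or 0.684% of all UMIs. Dyneins are motor complexes that move along microtubules towards their minus end. Axonemal dyneins form the inner and outer arms that bend the flagellum of the sperm, and they are put together in the cytoplasm with the help of assembly factors before they enter the axoneme. Cytoplasmic dynein-1 carries cargo and nuclei through the cell, cytoplasmic dynein-2 returns cargo from the tip of the growing axoneme, and several small light chains serve more than one of these motors and also bind proteins that are no motors.

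The cells came from whole testes of 2 untreated wild-type C57Bl/6J Crl mice at 8 weeks of age, with 1 droplet library per mouse. The study has no second condition, so the comparisons are between classes of cells, each summed per mouse. Mouse 1 contributed 1237 cells with 27450497 UMIs and mouse 2 contributed 1315 cells with 30302332 UMIs, and no barcode was shared between them. K-means clusters were built without any dynein gene and without the genes of the related lists given further on, and were named from marker genes. Ordered by diffusion pseudotime, the 6 large clusters are called steps 1 to 6. Step 1 was early spermatocyte-like (53 and 111 cells in mouse 1 and mouse 2) and step 2 was pachytene or later spermatocyte-like (307 and 219 cells). Steps 3 (308 and 379) and 4 (190 and 260) were round spermatid-like. Steps 5 (86 and 107) and 6 (284 and 230) were elongating or condensing spermatid-like. The name of step 3 rests on 4 of 14 round spermatid markers at 1.5 or more times their level in all cells. The remaining 18 cells were spermatogonium-like, Sertoli-like or Leydig-like. Levels are given as CPM, the UMIs of a gene scaled to a common total of UMIs in the same cells. Mouse 1 is always given first. CPM is a share of the cells' RNA, and the median UMI count per cell lay between 16709 and 24178 in steps 1 to 5 but at 11304 and 12453 in step 6. The mean count per cell was highest in step 2 of both mice, with 10425603 UMIs in 307 cells and 7453866 UMIs in 219 cells. Cells with many UMIs weigh more in the sums. Because UMIs were captured at the 3′ end of transcripts, they carry no correction for length.

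As a share of all UMIs, the dynein genes changed little along the 6 steps, while their makeup was exchanged. Summed over all 41 genes, the level was 6321 and 6055 CPM in step 1, 7271 and 6727 in step 2, 7377 and 6912 in step 3, 7286 and 6769 in step 4, 6931 and 6218 in step 5 and 6649 and 5832 in step 6. The 9 shared light chains went from 2332 and 2019 CPM in step 2 to 5780.4 and 4950.0 CPM in step 6. The other 32 genes went the other way, from 4939 and 4708 CPM to 869 and 882 CPM between the same steps. In both directions the ranges of the mice did not overlap. The rise of the light chain sum was that of Dynll1 and Dynll2. Without these 2, the remaining 39 genes, light chains included, fell from 6246 and 5769 CPM in step 2 to 1114 and 1075 CPM in step 6. Counted per cell, the shared light chains reached 79.2 and 68.7 UMIs in step 2, 125 and 121 in step 5 and 73.4 and 67.6 in step 6, and the other 32 genes 168 and 160.3, 40.99 and 42.01 and 11.03 and 12.04. Per cell, the shared light chains of each mouse were thus no higher in step 6 than in step 2.

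**Figure D1:**
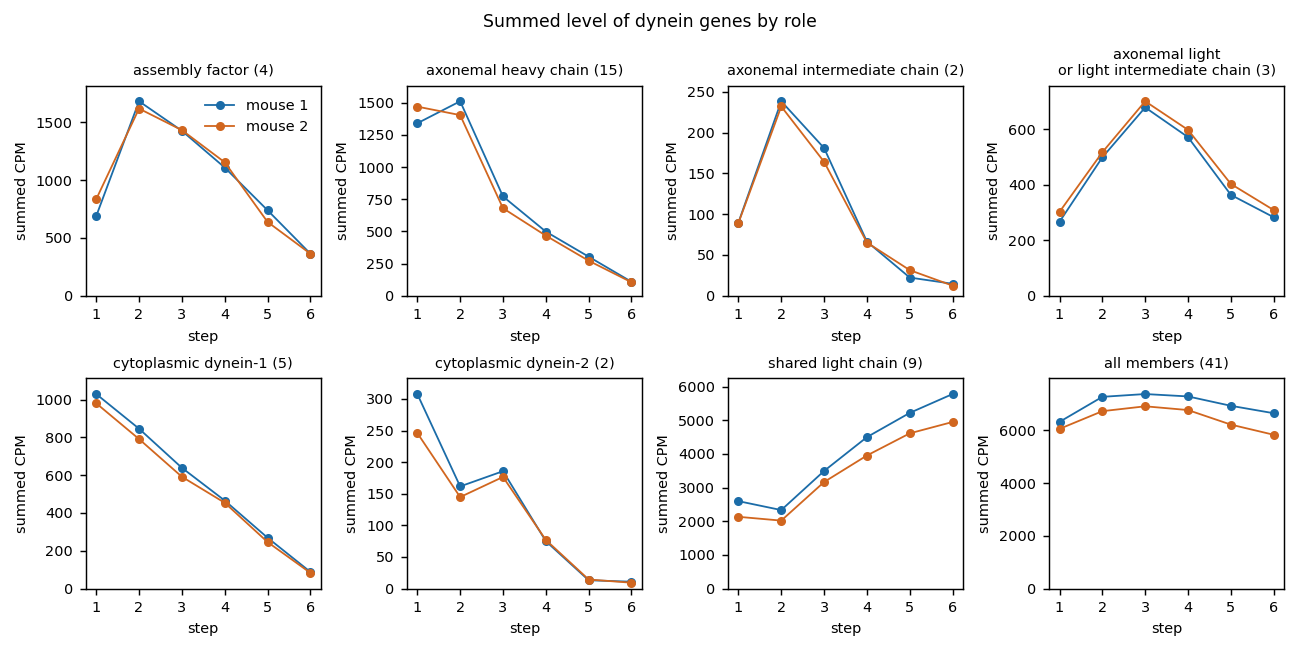
Summed CPM of the dynein genes of each role (vertical axis, starting at 0; number of genes in brackets) against the 6 steps (horizontal axis), with 1 line per mouse. The 15 axonemal heavy chains go from 1512 and 1405 CPM in step 2 to 109 and 105 CPM in step 6. The 9 shared light chains reach 5780.4 and 4950.0 CPM in step 6, most of it from Dynll1 and Dynll2.

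Calls were made with edgeR's quasi-likelihood test on UMIs summed per mouse and cell class, with steps 3 and 4 as 1 round spermatid-like class and steps 5 and 6 as 1 elongating or condensing class. A gene was called at a Benjamini-Hochberg adjusted p under 0.05 over all rows tested. Of the 41 genes, 39 could be tested, since Dnah11 and the opposite-strand transcript Dnah2os (2 UMIs in all) had too few counts. From early to pachytene or later spermatocyte-like cells, 18 dynein genes were called higher and 6 lower, while 26.6% and 21.7% of all 15083 rows tested were called in these directions. The median log2 fold change was 0.57 over the 39 genes and 0.08 over all rows. From pachytene or later spermatocyte-like to round spermatid-like cells, 12 were higher and 17 lower, against 36.7% and 32.9% of all rows. The 12 called higher were 30.8% of the 39 genes, near the share of all rows. From round to elongating or condensing spermatid-like cells, 7 were higher and 26 lower, against 27.7% and 36.7% of all rows, and the median was -1.35 against -0.33 over all rows. Scaling by the total UMIs alone, without TMM factors, shifted the median of all rows to -0.25, -0.21 and -1.12 in these 3 comparisons. The dynein genes called higher and lower were then 14 and 10, 12 and 21, and 4 and 31. Of all rows, 19% and 30.5%, 33.6% and 40.1%, and 18.1% and 56.7% were called so by this scaling. The 10 called lower in the first comparison, and the 12 and 4 called higher in the later ones, were not above these shares. Every gene called lower with TMM stayed so. In the last comparison Dnali1 was the only gene called with TMM whose fold changed sign, and Dnaaf3 (0.32 with TMM, not called) was called lower (-0.48).

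**Figure D2:**
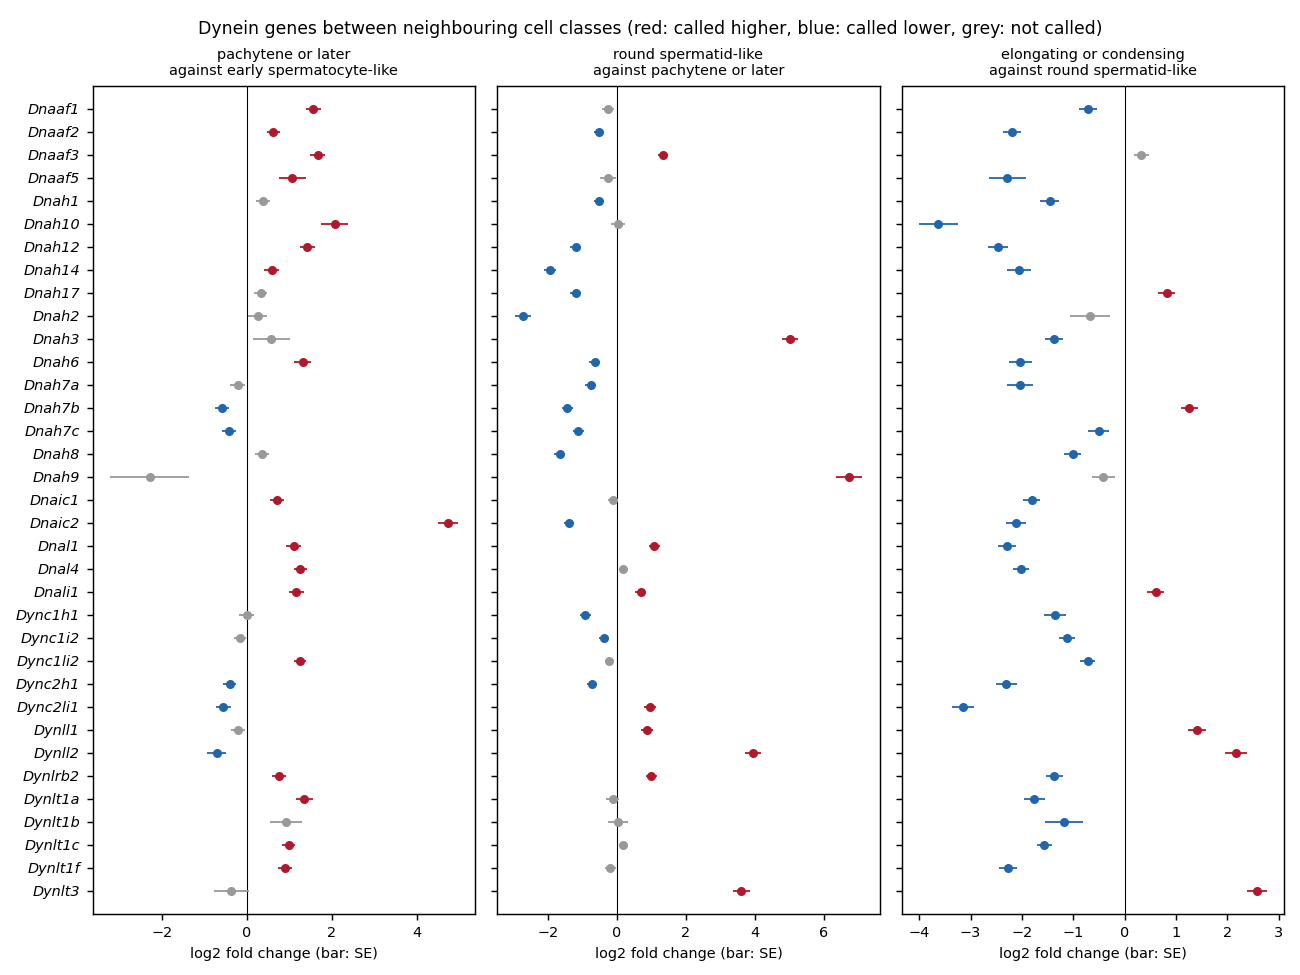
Log2 fold changes (horizontal axis) of the 35 dynein genes with at least 500 UMIs in 3 comparisons of neighbouring cell classes, each with 2 mice per class. Bars show 1 SE, derived from the fold and the F statistic of edgeR. Genes are listed by role from assembly factors at the top to shared light chains at the bottom. Dnaic2 stands out in the first comparison (4.73), Dnah9 and Dnah3 in the second (6.73 and 5.01), and Dynlt3 in the third (2.57).

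The assembly factors fold and join the arms before transport. All 4 of them were called higher in pachytene or later than in early spermatocyte-like cells, and 3 of 4 were called lower in elongating or condensing than in round spermatid-like cells, while 26.6% of all rows were called higher and 36.7% lower in these 2 comparisons. By total UMIs alone Dnaaf2 and Dnaaf5 were not called in the first of these, and with step 3 kept out of the round class Dnaaf1 and Dnaaf5 were not called in the last. Dnaaf1 (chr8:119575235-119598454, plus strand, GRCm38) had 563 and 699 CPM in step 1, 1478 and 1419 in step 2, 1234 and 1206 in step 3, 831 and 842 in step 4, 520.0 and 432 in step 5 and 299 and 286 in step 6. It rose from early to pachytene or later spermatocyte-like cells (log2 fold change 1.56 ± 0.18 (SE), adjusted p = 3.5e-07, edgeR), and every later step was below the one before in both mice. Dnaaf2, which works with heat shock proteins on the heavy chains, and Dnaaf5 were highest among spermatocytes and step 3. Dnaaf2 had 88.9 and 93.7 CPM in step 1, 111 and 107 in step 2, 79.4 and 84.03 in step 3, 45.97 and 46.6 in step 4 and 5.27 and 5.73 in step 6. Its annotation overlaps Gm49383 and Gm49384 on the same strand. Dnaaf5 was at 6.41 and 10.7 CPM in step 1, 15.8 and 14.6 in step 2, 13.8 and 18.4 in step 3 and 2.79 and 4.94 in step 4, with a fall at step 4 (log2 fold change -1.77 ± 0.29). Dnaaf3 (chr7:4522933-4532453, minus strand) followed another course, with 30.2 and 31.8 CPM in step 1, 76.5 and 77.4 in step 2, 98.5 and 123 in step 3, 229 and 260.2 in step 4, 205 and 193 in step 5 and 58.3 and 71.01 in step 6. Its highest values in both mice lay in step 4, above those of step 3 (log2 fold change 1.38 ± 0.15 (SE), adjusted p = 5.6e-08). It was the only assembly factor called higher in round spermatid-like than in pachytene or later spermatocyte-like cells (log2 fold change 1.33 ± 0.15). Tnni3 overlaps Dnaaf3 on the same strand, and reads of the shared stretch could not be told apart here.

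Among the outer arm heavy chains, Dnah8 and Dnah17 are known from the sperm flagellum, and Dnah9 from the outer arms of motile cilia. Dnah8 (chr17:30624354-30877365, plus strand), the heavy chain with the most UMIs (18469), had 591 and 682 CPM in step 1, 658 and 606 in step 2, 262 and 215 in step 3, 84.05 and 87.1 in step 4, 59.7 and 51.8 in step 5 and 45.8 and 43.9 in step 6. Both spermatocyte clusters were above all spermatid clusters in both mice. Dnah8 fell into round spermatid-like cells (log2 fold change -1.66 ± 0.16 (SE), adjusted p = 8.2e-09, edgeR). Dnah17 (chr11:118021723-118130634, minus strand) was measured at 76.96 and 73.9 CPM in step 1, 71.1 and 74.6 in step 2, 33.97 and 31.3 in step 3, 22.3 and 19.4 in step 4, 43.2 and 45.01 in step 5 and 14.98 and 17.5 in step 6. It thus fell towards step 4 and was higher again in step 5 (log2 fold change 1.59 ± 0.17 (SE), adjusted p = 5.8e-08). A fall followed in step 6. Its rise in elongating or condensing against round spermatid-like cells (log2 fold change 0.82 ± 0.16) was lost by total UMIs alone (0.01). Dnah9 (chr11:65831282-66168551, minus strand) was nearly absent from spermatocytes, with 3 UMIs in all pachytene or later spermatocyte-like cells of both mice. Its level was 1.83 and 0.826 CPM in step 1, 0.192 and 0.134 in step 2, 4.61 and 5.41 in step 3, 33.7 and 34.4 in step 4, 18.4 and 13.6 in step 5 and 1.39 and 1.59 in step 6. Its CPM in the round spermatid-like class was 103 times that of the pachytene or later class over both mice, with an exact 95% interval from 35.1 to 503 that covers counting error only. At step 4, Dnah9 was found in 51.1% of the cells of mouse 1 (exact 95% binomial interval 43.7 to 58.4%) and 48.8% of those of mouse 2, against 0.651% and 0.457% in step 2. After each cell was thinned to 5000 UMIs these shares were 16.3% and 17.3% in step 4 and 0 in step 2.

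The inner arm heavy chains differed among themselves in course. Dnah3 (chr7:119922671-120095280, minus strand) appeared with the spermatids, at 7.33 and 1.65 CPM in step 1, 4.32 and 3.76 in step 2, 89.1 and 90.2 in step 3, 157 and 140.3 in step 4, 57.3 and 50.01 in step 5 and 3.33 and 7.64 in step 6. Steps 3 to 5 of both mice were all above every other step, and the rise into round spermatid-like cells was log2 fold change 5.01 ± 0.22 (SE), adjusted p = 2.5e-14 (edgeR). In step 4, 94.2% and 91.9% of cells had a Dnah3 UMI, against 10.7% and 10.96% in step 2. Thinned to 5000 UMIs, the shares were 54.2% and 52.7% against 4.23% and 2.28%. Dnah12 had 109.9 and 101 CPM in step 1, 233 and 200.3 in step 2, 120.3 and 102 in step 3, 43.9 and 43.2 in step 4, 14.1 and 8.57 in step 5 and 8.32 and 5.09 in step 6. Its highest value lay in step 2 of both mice, a rise from early spermatocyte-like cells with log2 fold change 1.42 ± 0.17. Dnah14 was also highest in step 2 of both mice, but in mouse 2 hardly above step 1. It had 140.2 and 179 CPM in step 1, 190.4 and 186 in step 2, 64.2 and 53.98 in step 3, 20.9 and 20.4 in step 4 and 6.104 and 4.14 in step 6. Dnah6 was lower throughout, with 25.7 and 21.5 CPM in step 1, 47.3 and 41.5 in step 2, 33.1 and 31.3 in step 3, 16.3 and 12.5 in step 4 and 2.497 and 1.59 in step 6. Dnah2 and Dnah10, which pair in the double-headed inner arm, differed in when they fell. Dnah2 was at 26.6 and 42.1 CPM in step 1, 34.9 and 32.1 in step 2, 5.46 and 6.25 in step 3 and 2.79 and 1.81 in step 4. It fell into round spermatid-like cells (log2 fold change -2.74 ± 0.23 (SE), adjusted p = 9.5e-10). Dnah10 was at 3.66 and 4.96 CPM in step 1, 14.2 and 15.7 in step 2, 17.6 and 15.6 in step 3, 8.59 and 8.56 in step 4 and 0.485 and 1.07 in step 5. It did not pass the test there (log2 fold change 0.03 ± 0.20) but fell into elongating or condensing cells (log2 fold change -3.62 ± 0.38 (SE), adjusted p = 2.9e-08). Dnah1, needed for the inner arms of sperm, went from 92.5 and 111 CPM in step 1, 104 and 104 in step 2, 79.9 and 72.1 in step 3, 46.4 and 42.8 in step 4, 21.4 and 19.3 in step 5 and 8.601 and 7.01 in step 6. It was called lower at each of the last 3 steps.

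Dnah7a, Dnah7b and Dnah7c are near-identical copies of an inner arm heavy chain gene on chromosome 1. Reads that map to several genes are not counted by Cell Ranger, so the split of reads among these copies is uncertain. All 3 had their highest level in step 1 of both mice. Dnah7b (chr1:46066315-46373546, plus strand) had 126 and 109 CPM in step 1, 61.8 and 57.8 in step 2, 22.5 and 22.6 in step 3, 13.9 and 15.3 in step 4, 48.1 and 54.3 in step 5 and 8.32 and 8.28 in step 6. It fell in the first 2 class comparisons and then rose from step 4 to step 5 (log2 fold change 2.31 ± 0.18 (SE), adjusted p = 2.2e-10, edgeR), where its level was again near that of step 2, and fell in step 6 (log2 fold change -2.03 ± 0.20). Dnah7a was at 58.6 and 64.4 CPM in step 1, 45.4 and 37.2 in step 2, 21.8 and 19.7 in step 3, 22.5 and 20.9 in step 4, 5.83 and 3.93 in step 5 and 1.94 and 1.27 in step 6. It fell where Dnah7b rose (log2 fold change -1.68 ± 0.29 (SE), adjusted p = 4e-05). Dnah7c had 80.6 and 78.9 CPM in step 1, 47.5 and 44.9 in step 2, 16.6 and 15.3 in step 3, 25.1 and 18.9 in step 4, 13.6 and 10.002 in step 5 and 3.88 and 5.09 in step 6. Its difference at that step did not pass the test (log2 fold change -0.40 ± 0.23 (SE), adjusted p = 0.17). Of the 14 heavy chains tested, 3 (21.4%) were called higher and 8 (57.1%) lower between steps 4 and 5, against 23.3% and 20.5% of all rows tested there, so that the share called higher was near that of all rows. Dnah7b and Dnah17 were the 2 called higher among those with at least 500 UMIs.

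**Figure D3:**
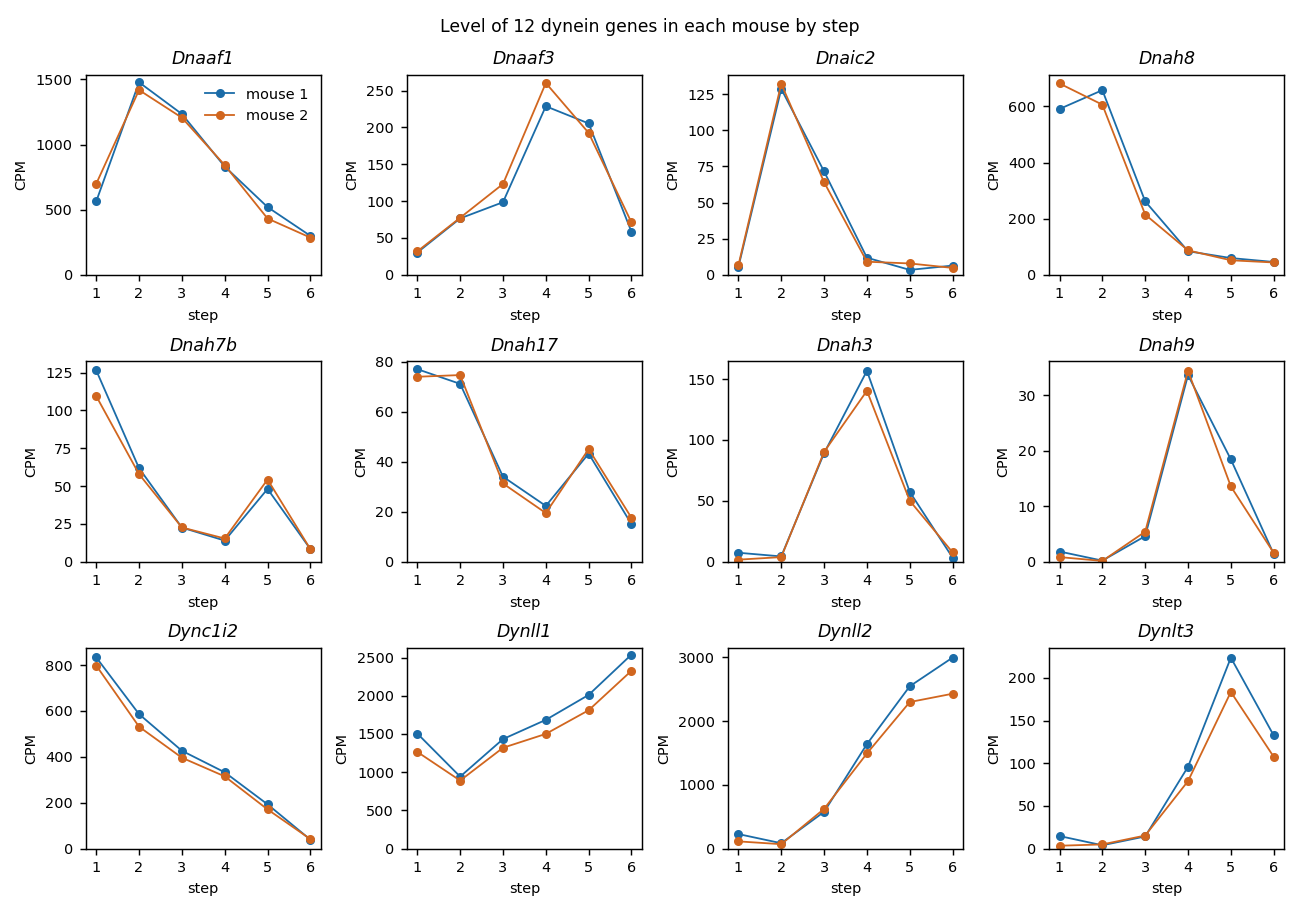
CPM (vertical axis, starting at 0) of 12 dynein genes against the 6 steps (horizontal axis), with 1 line per mouse. Dnaic2 peaks in step 2, Dnah3 and Dnah9 in step 4, Dynlt3 in step 5 and Dynll1 and Dynll2 in step 6, while Dnah7b and Dnah17 are lower up to step 4 and are higher again in step 5.

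The axonemal intermediate chains Dnaic1 and Dnaic2 sit together at the base of the outer arm. Dnaic2 (chr11:114727408-114757889, plus strand) had 5.497 and 6.61 CPM in step 1, 129 and 132 in step 2, 71.5 and 64.1 in step 3, 11.8 and 9.06 in step 4, 3.398 and 7.86 in step 5 and 6.38 and 4.78 in step 6. Step 1 was close to zero and step 2 the highest in both mice, and this was the largest fold of any dynein gene between the spermatocyte classes (log2 fold change 4.73 ± 0.23 (SE), adjusted p = 4.5e-12, edgeR). Dnaic1 had 84.3 and 82.6 CPM in step 1, 109.8 and 99.9 in step 2, 109.6 and 100.1 in step 3, 54.6 and 56.2 in step 4, 18.9 and 23.6 in step 5 and 8.32 and 7.64 in step 6. Its rise was smaller (log2 fold change 0.70 ± 0.16) and was not called by total UMIs alone. Dnaic2 made up 6.12% and 7.41% of the UMIs of both genes in step 1, 53.9% and 56.9% in step 2, and 17.8% and 13.9% in step 4. A Dnaic2 UMI was found in 91.9% and 86.3% of step 2 cells (47.6% and 46.6% at 5000 UMIs per cell) and in 9.43% and 10.8% of step 1 cells (3.77% and 2.70%).

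The axonemal light chains Dnal1 and Dnal4 and the light intermediate chain Dnali1 were all called higher in pachytene or later than in early spermatocyte-like cells. In that comparison 26.6% of all rows tested were called higher. Dnal1, a light chain of the outer arm, had 30.2 and 33.04 CPM in step 1, 56.7 and 49.9 in step 2, 130.2 and 125 in step 3, 59.9 and 57.5 in step 4, 16.02 and 19.3 in step 5 and 8.05 and 5.73 in step 6. Step 3 was the highest in both mice, with a rise into round spermatid-like cells (log2 fold change 1.09 ± 0.15 (SE), adjusted p = 1.4e-06, edgeR). Dnal4 had 115 and 118 CPM in step 1, 207 and 223 in step 2, 263 and 257 in step 3, 155 and 142 in step 4, 52.4 and 52.9 in step 5 and 12.5 and 14.97 in step 6. Step 3 was again the highest. Dnali1, which belongs to the inner arms, hardly declined as a share of UMIs, at 122 and 152 CPM in step 1, 236 and 244 in step 2, 286 and 319 in step 3, 357 and 398 in step 4, 295 and 331 in step 5 and 262 and 288 in step 6. Its step 6 CPM in each mouse was above its own CPM in step 2. Counted per cell, Dnali1 was highest in the pachytene or later class of both mice. In elongating or condensing against round spermatid-like cells its log2 fold change was 0.60 ± 0.16 with TMM and -0.20 by total UMIs alone, and it was also negative by UMIs per cell. Dnali1 was the only gene higher in mouse 2 in all 6 steps, with a median log2 ratio of 0.16, which has no test because each mouse is 1 library. Dynll1, with a median of -0.14, and Dynlt1a and Dynlt1f were higher in mouse 1 in all 6 steps.

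As a share of UMIs, the sum of cytoplasmic dynein-1 was lower at each step, from 1029.8 and 981 CPM in step 1 to 87.95 and 82.8 CPM in step 6. Counted per cell, the sum was higher in step 2 (28.7 and 26.9 UMIs) than in step 1 (21.2 and 21.4) and fell only from step 3 onwards. With TMM the median log2 fold change of its 5 genes between the spermatocyte classes was -0.07. Most of the summed CPM was the intermediate chain Dync1i2 (chr2:71211706-71263303, plus strand), at 834 and 798 CPM in step 1, 586 and 531 in step 2, 426 and 396 in step 3, 332 and 315 in step 4, 193 and 171 in step 5 and 38.6 and 41.1 in step 6. It passed the test in the later comparisons, with log2 fold change -0.38 ± 0.15 into round spermatid-like cells and log2 fold change -1.12 ± 0.15 (SE), adjusted p = 1.3e-06 (edgeR) into elongating or condensing cells. The heavy chain Dync1h1 had 61.4 and 65.2 CPM in step 1, 47.3 and 51.4 in step 2, 26.8 and 27.9 in step 3, 15.1 and 17.5 in step 4, 6.31 and 7.502 in step 5 and 3.88 and 3.503 in step 6. The light intermediate chain Dync1li2 had 121 and 100.3 CPM in step 1, 202 and 198 in step 2, 183 and 165 in step 3, 115 and 118 in step 4, 68.5 and 66.4 in step 5 and 43.8 and 37.6 in step 6. Unlike these, it passed the test for a rise into pachytene or later cells (log2 fold change 1.25 ± 0.15 (SE), adjusted p = 4.5e-07). Dync1i2 took 97.9% or more of the UMIs of both intermediate chain genes in every step and mouse, and Dync1li2 91.0% or more of those of both light intermediate chain genes.

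Of cytoplasmic dynein-2, the motor of retrograde intraflagellar transport, both genes were called lower in pachytene or later than in early spermatocyte-like cells. In that comparison 21.7% of all rows tested were called lower. The heavy chain Dync2h1 was lower at each step up to step 5, at 194 and 169 CPM in step 1, 112 and 97.7 in step 2, 78.2 and 68.3 in step 3, 29.95 and 29.8 in step 4, 3.398 and 8.22 in step 5 and 6.104 and 7.01 in step 6. The light intermediate chain Dync2li1 had 114 and 76.8 CPM in step 1, 49.97 and 47.1 in step 2, 108 and 108 in step 3, 45.04 and 47.1 in step 4, 9.71 and 6.07 in step 5 and 4.72 and 2.23 in step 6. Step 2 was a low point between steps 1 and 3 in both mice. Its rise into round spermatid-like cells (log2 fold change 0.95 ± 0.16 (SE), adjusted p = 2.5e-05, edgeR) stood against a fall of Dync2h1 in the same comparison (log2 fold change -0.73 ± 0.15 (SE), adjusted p = 0.00021). With step 4 alone as the round class, the rise of Dync2li1 was not called (0.24). Both were under 10 CPM in step 5, and their fall into elongating or condensing cells was -3.15 for Dync2li1 and -2.30 for Dync2h1 in log2.

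Among the shared light chains, Dynll1 and Dynll2 had their highest CPM in step 6 of both mice, Dynlt3 had it in step 5 and the others earlier. Counted in UMIs per cell, Dynll1 and Dynll2 were highest in step 5 of both mice. Dynll1 and Dynll2 encode the small LC8 light chains, which are found in dynein and in many other complexes. Dynll1 (chr5:115297110-115300999, minus strand) had 1505 and 1265 CPM in step 1, 941 and 889.9 in step 2, 1433 and 1319 in step 3, 1684 and 1501 in step 4, 2011 and 1810.4 in step 5 and 2539 and 2327 in step 6. Dynll2 (chr11:87979525-87987533, minus strand) had 227 and 112 CPM in step 1, 83.4 and 68.3 in step 2, 576 and 622 in step 3, 1639 and 1492 in step 4, 2547 and 2299 in step 5 and 2997 and 2429.8 in step 6. In both mice each step from step 3 onwards was above the one before, and both genes were called higher at each of the steps tested from 3 to 6. Dynll2 rose into round spermatid-like cells with log2 fold change 3.93 ± 0.23 (SE), adjusted p = 2.8e-12 (edgeR) and into elongating or condensing cells with log2 fold change 2.17 ± 0.21 (SE), adjusted p = 1.3e-08. For Dynll1 the same comparisons gave log2 fold change 0.88 ± 0.17 and log2 fold change 1.40 ± 0.17. These folds include TMM factors of 1.02 and 0.989 in the round sums and 0.567 and 0.580 in the elongating or condensing sums. Dynll1 had 9814 and 6633 UMIs in 307 and 219 pachytene or later cells. It had 15647 and 20081 in 498 and 639 round spermatid-like cells, and 13293 and 12377 in 370 and 337 elongating or condensing cells. Per cell, Dynll1 was thus nearly level between the pachytene or later and round classes and slightly higher in the last. The share of Dynll2 in the UMIs of both genes went from 8.14% and 7.13% in step 2 to 28.7% and 32.1% in step 3, 49.3% and 49.9% in step 4, 55.9% and 55.9% in step 5, and 54.1% and 51.1% in step 6. Dynll2 was also called lower in pachytene or later than in early spermatocyte-like cells (log2 fold change -0.71 ± 0.23 (SE), adjusted p = 0.012). The 12 elongating or condensing spermatid markers summed to 7210.1 and 3934 CPM in step 1 and 3621 and 3155 CPM in step 2, with mouse 1 the higher in step 1 as for Dynll2 (227 against 112). In mouse 2 alone the log2 fold of Dynll2 was -0.45. Their part in this fall was not tested.

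**Figure D4:**
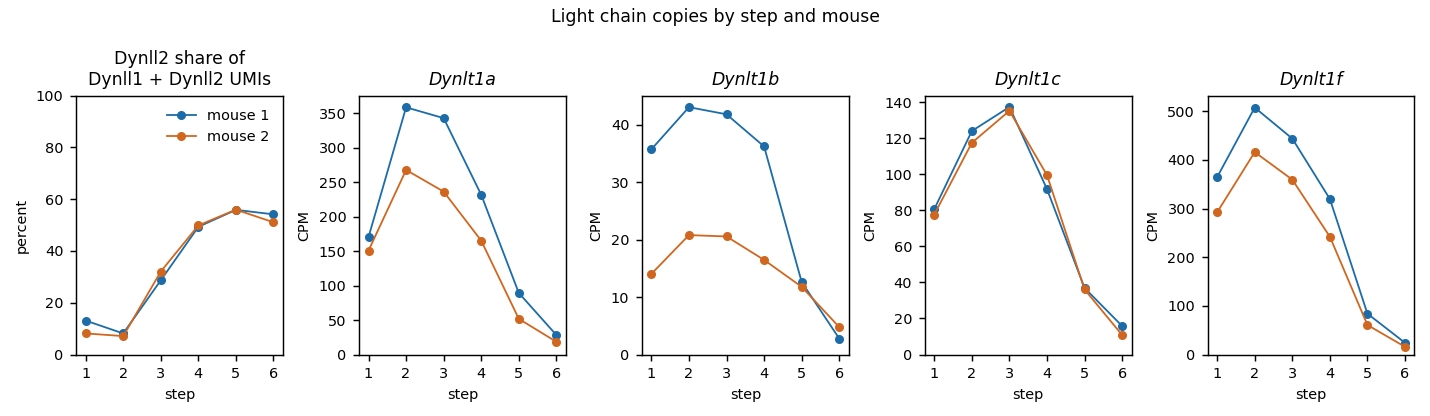
Left, Dynll2 as a percentage of the UMIs of Dynll1 and Dynll2 together (vertical axis, 0 to 100) by step; right, CPM of the 4 Dynlt1 copies by step, with 1 line per mouse in every plot. The Dynll2 share is 8.14% and 7.13% in step 2 and 55.9% in step 5 of both mice, and the lines of Dynlt1a, Dynlt1b and Dynlt1f lie apart between the mice where that of Dynlt1c does not.

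Dynlt3 (chrX:9654267-9663003, minus strand), a light chain of the Tctex type, is the only dynein gene on the X chromosome. It had 14.7 and 3.304 CPM in step 1, 3.84 and 4.83 in step 2, 14.2 and 15.3 in step 3, 95.9 and 79.1 in step 4, 224 and 184 in step 5 and 133 and 108 in step 6. Step 2 was low and step 5 the highest in both mice, and it was called higher into round spermatid-like cells (log2 fold change 3.60 ± 0.25 (SE), adjusted p = 2.6e-11, edgeR) and again into elongating or condensing cells (log2 fold change 2.57 ± 0.20 (SE), adjusted p = 2.4e-10). A Dynlt3 UMI was present in 12.7% and 15.1% of step 2 cells and in 97.7% and 94.4% of step 5 cells, or 2.93% and 2.74% against 60.5% and 59.8% at 5000 UMIs per cell. For Dynll2 in step 6 the shares were 284 of 284 cells in mouse 1 and 99.1% in mouse 2, or 99.6% and 97.8% at that depth. Dynlrb2, of the roadblock type, went the other way after step 3, with 181 and 196 CPM in step 1, 266 and 229.7 in step 2, 498 and 452 in step 3, 393 and 348 in step 4, 211 and 155 in step 5 and 38.3 and 31.8 in step 6. Its fall into elongating or condensing cells was log2 fold change -1.37 ± 0.16. It held 90.1% or more of the UMIs of Dynlrb1 and Dynlrb2 in each step and mouse.

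Dynlt1a, Dynlt1b, Dynlt1c and Dynlt1f are copies of another Tctex light chain gene, all on chromosome 17, with the same uncertainty in how reads are split among them. Dynlt1f was at 365 and 292 CPM in step 1, 508 and 416 in step 2, 444 and 359 in step 3, 319.7 and 242 in step 4, 83.99 and 60.7 in step 5 and 24.1 and 15.9 in step 6. Dynlt1a was at 170.4 and 151 CPM in step 1, 359 and 268 in step 2, 343 and 236 in step 3, 232 and 165 in step 4, 89.3 and 51.8 in step 5 and 28.3 and 18.5 in step 6. Both were highest in step 2 and fell into elongating or condensing cells (log2 fold change -2.27 ± 0.17 (SE), adjusted p = 2.6e-10 for Dynlt1f, edgeR). Dynlt1c had 80.6 and 77.6 CPM in step 1, 124 and 117 in step 2, 137 and 135 in step 3, 91.7 and 99.5 in step 4, 36.9 and 36.1 in step 5 and 15.8 and 10.8 in step 6. Step 3 was its highest. Dynlt1b, with the lowest count of the copies, had 35.7 and 14.04 CPM in step 1, 43.1 and 20.8 in step 2, 41.8 and 20.6 in step 3, 36.2 and 16.5 in step 4, 12.6 and 11.8 in step 5 and 2.77 and 4.78 in step 6. Of the 4 copies, 3 set the mice apart. Mouse 1 was above mouse 2 for Dynlt1a and Dynlt1f in all 6 steps, with median log2 ratios of mouse 2 to mouse 1 of -0.51 and -0.36, and for Dynlt1b in all 5 steps with at least 20 UMIs (-1.05). For Dynlt1c this median was -0.04. With 1 library per mouse the difference has no test, and a library cannot be told apart from its animal.

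Along the ordering itself, cells were placed in 20 bins of equal number. The bin of the highest CPM was the same within 1 bin in both mice for 26 of the 36 dynein genes with at least 100 UMIs in each mouse. Dnah7a, Dnah7b, Dync1h1, Dync1i2, Dync2h1 and the little counted Dynlrb1 were highest in bin 1 of both mice, and Dnah2, Dnah8, Dnah14 and Dnah17 in bin 2. Dnal1 followed in bin 8 and Dynlrb2 in bin 9. Dnah3 peaked in bins 12 and 13 of mouse 1 and mouse 2, Dnah9 and Dnaaf3 in bins 13 and 14, Dynlt3 in bins 15 and 16, and Dynll1 in bin 20 of both. The mice disagreed most for Dync2li1 (bins 1 and 9) and Dnah10 (bins 11 and 3). These places depended in part on the ordering. With 20 in place of 10 components, 28 of the 36 genes lay within 1 bin, Dynlt3 was highest in bins 15 and 19, Dynll1 in bins 15 and 16, Dync2li1 in bin 8 of both mice and Dnah10 in bins 2 and 3. With 10 bins, 32 of 36 lay within 1 bin, and Dync2li1 was highest in bin 5 of both mice. By class, 31 of the 38 genes with at least 100 UMIs in all were highest in the same class in both mice. This was the early spermatocyte-like class for 9, the pachytene or later class for 13, the round spermatid-like class for 6 and the elongating or condensing class for 3. By UMIs per cell, which are not scaled to the total, these numbers were 4, 23, 5 and 3.

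**Figure D5:**
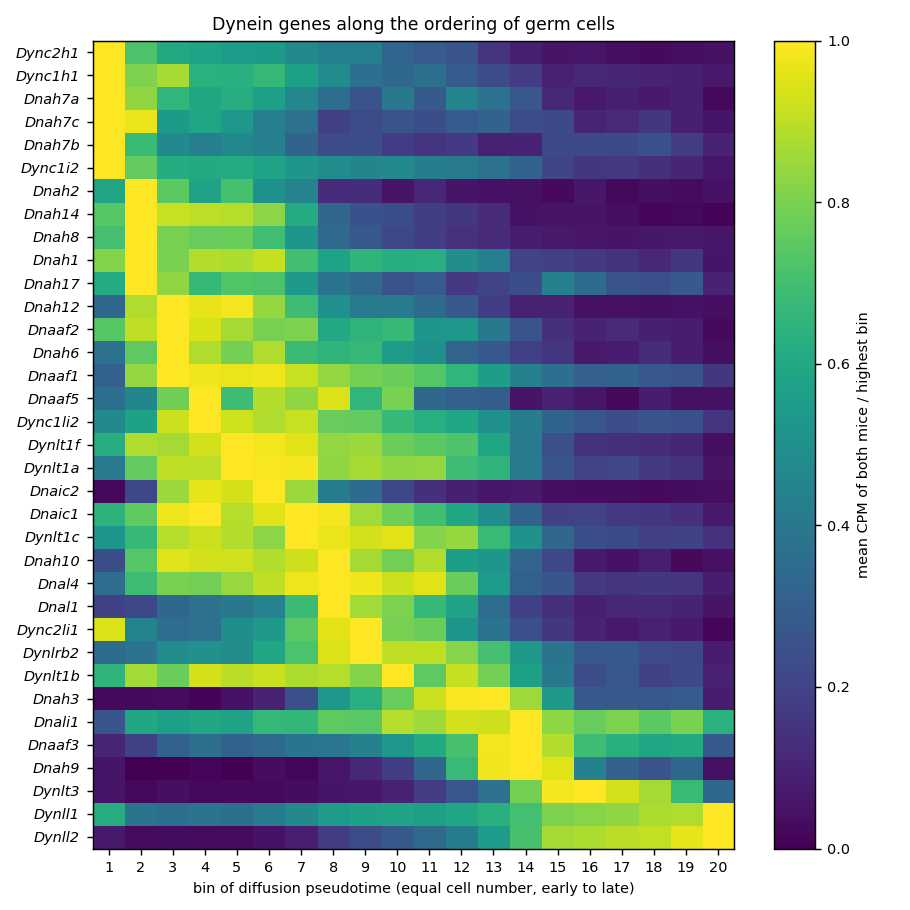
Levels of 35 dynein genes (rows, ordered by the bin of their highest level) in 20 bins of the cell ordering (horizontal axis, early to late), as the mean CPM of both mice divided by that of the gene's highest bin (colour, 0 to 1). Most genes are highest in bins 1 to 10, then Dnah3, Dnali1, Dnaaf3 and Dnah9 in bins 12 to 14, and only Dynlt3, Dynll1 and Dynll2 after bin 14.

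Promoter windows of 300 bases, from 250 before to 50 after the RefSeq start of a gene, were searched for motifs on both strands in sequence of GRCm38.p6. This start can lie away from the GENCODE start, as in the following examples. On the plus strand, the Dnah8 window is chr17:30626686-30626985 in a gene starting at 30624354. The Dnah12 window, chr14:26691304-26691603, lies before a gene start at 26693274. On the minus strand, the Dnal4 window is chr15:79774418-79774717 in a gene starting at 79777849. The Dync2h1 window is chr9:7177009-7177308 in a gene starting at 7184446. The Dnah17 window is chr11:118129170-118129469 in a gene starting at 118130634. Of the 41 genes, 33 had a window, with 35 windows in all, and Dnaaf1, Dnah2os, Dnah3, Dync1li2, Dync2li1, Dynll2, Dynlt1a and Dynlt1b had none. The RFX X-box motif, which is bound by RFX factors at ciliary genes, was searched in 1 form only, with fixed letters at fixed distances. This form was found in 6 of 35 windows (17.1%), against 4.62% of all 32851 windows. These were the windows of Dnaaf2, Dnaaf5, Dnah10, Dnah17, Dnah2 and Dync2h1. The MYB motif CNGTTG was in 20 of 35 windows (57.1%) against 35.0% of all, the cyclic AMP response element TGACGTCA in 1 (2.86% against 1.79%), its core TGACG in 8 (22.9% against 20.8%) and TATAAA in 1 (2.86% against 13.6%). The X-box can hold the MYB motif, and the core lies within the full element. Dnaic2 and Dnah10 are shown because their folds were the largest of the genes with a window in the first comparison, Dnah6 because it held the full response element, and Dynlt3 because it is the only dynein gene on the X chromosome. Capitals mark every match to any of these motifs, read 5′ to 3′ on the strand of the gene.
Dnaic2 (GRCm38.p6 chr11:114727169-114727468, plus strand): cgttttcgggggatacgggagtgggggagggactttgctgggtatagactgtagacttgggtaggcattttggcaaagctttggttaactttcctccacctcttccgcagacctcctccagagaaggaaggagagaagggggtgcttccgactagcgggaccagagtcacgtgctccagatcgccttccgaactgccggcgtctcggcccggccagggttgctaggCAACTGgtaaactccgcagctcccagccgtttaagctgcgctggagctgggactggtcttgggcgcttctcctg
Dnah10 (GRCm38.p6 chr5:124724835-124725134, plus strand): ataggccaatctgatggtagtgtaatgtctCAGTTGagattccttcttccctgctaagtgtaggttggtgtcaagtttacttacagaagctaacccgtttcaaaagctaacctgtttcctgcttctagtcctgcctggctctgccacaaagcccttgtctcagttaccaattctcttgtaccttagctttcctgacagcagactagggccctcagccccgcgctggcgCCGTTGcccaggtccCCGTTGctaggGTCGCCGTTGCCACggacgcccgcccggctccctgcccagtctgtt
Dnah6 (GRCm38.p6 chr6:73221582-73221881, minus strand): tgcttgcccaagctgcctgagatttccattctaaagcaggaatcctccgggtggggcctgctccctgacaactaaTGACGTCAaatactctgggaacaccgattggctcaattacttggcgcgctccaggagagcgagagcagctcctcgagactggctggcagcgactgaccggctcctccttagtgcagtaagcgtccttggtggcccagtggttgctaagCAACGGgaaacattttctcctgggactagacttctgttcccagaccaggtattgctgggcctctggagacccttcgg
Dynlt3 (GRCm38.p6 chrX:9662934-9663233, minus strand): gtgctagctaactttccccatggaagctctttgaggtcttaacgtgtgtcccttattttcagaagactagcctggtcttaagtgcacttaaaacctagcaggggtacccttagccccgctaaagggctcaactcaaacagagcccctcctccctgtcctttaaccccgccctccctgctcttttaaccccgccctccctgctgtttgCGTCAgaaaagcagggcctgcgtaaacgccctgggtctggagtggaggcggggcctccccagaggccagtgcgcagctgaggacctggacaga
Dnah10 carries the X-box GTCGCCGTTGCCAC with a MYB motif inside it and 3 more MYB motifs. Dnaic2 holds 1 MYB motif, on the opposite strand, that begins 24 bases before the start. Whether the MYB motifs of Dnaic2 and Dnah6 lie within an X-box of another spacing was not tested. Windows outside the 6 may thus hold X-boxes of forms that were not searched. A match is a run of letters and says nothing of binding in these cells.

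Proteins that work with dynein were taken as 5 lists. The counts of these lists stand against 26.6% of all rows called higher and 21.7% lower in the first comparison, 36.7% and 32.9% in the second, and 27.7% and 36.7% in the third. Of dynein subunits under other symbols, 9 of 10 could be tested, with 4 called higher and 1 lower in pachytene or later against early spermatocyte-like cells, 2 and 3 in the next comparison and 2 and 6 in the last. The 3 called lower in the next comparison were 33.3% of the list and the 2 called higher in the last 22.2%, near the shares of all rows. Nme8, of the outer arm, rose from 27.5 and 14.9 to 201 and 197 CPM (log2 fold change 3.72 ± 0.20) in the first comparison. Tctex1d1, of the Tctex family, rose from 15.8 and 13.95 to 82.4 and 86.7 CPM (log2 fold change 2.70 ± 0.19) into round spermatid-like cells and from 82.4 and 86.7 to 634 and 615 CPM (log2 fold change 3.69 ± 0.18) into elongating or condensing cells. Wdr63, an inner arm intermediate chain, fell from 64.4 and 62.3 to 4.41 and 4.38 CPM (log2 fold change -3.04 ± 0.21) in the last comparison. Of 13 assembly factors under other symbols, 8 were called higher and 1 lower in the first comparison, 4 and 7 in the second and 1 and 9 in the third. The 4 called higher in the second were 30.8% of the list, near the share of all rows. Spag1 rose from 92.5 and 90.02 to 262 and 207 CPM (log2 fold change 1.74 ± 0.18) and later fell from 149 and 119 to 8.47 and 5.72 CPM (log2 fold change -3.43 ± 0.21). Ruvbl1, an ATPase of many assembly pathways, already fell from 163 and 149.9 to 40.3 and 41.2 CPM (log2 fold change -1.56 ± 0.15) between the spermatocyte classes.

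The 15 genes of outer arm docking and of the nexin-dynein regulatory complex were all called higher in pachytene or later than in early spermatocyte-like cells. In the second comparison 5 were higher (33.3%, near the share of all rows) and 7 lower, and in the third 14 of 15 were lower and none higher. Tcte1 rose from 13.7 and 9.91 to 64.9 and 48.03 CPM (log2 fold change 2.69 ± 0.24) in the first comparison. Into round spermatid-like cells, Fbxl13 rose from 11.1 and 13.4 to 118 and 138 CPM (log2 fold change 3.59 ± 0.19) and Iqca from 13.2 and 15.96 to 117 and 123 CPM (log2 fold change 3.25 ± 0.18). Ccdc40, among the 7 called lower there, fell from 92.4 and 93.4 to 30.5 and 28.1 CPM (log2 fold change -1.46 ± 0.18). Ccdc39, a ruler of the axonemal repeat, fell from 279 and 234 to 18.7 and 21.4 CPM (log2 fold change -2.87 ± 0.17) in the last comparison. Of 13 dynactin genes, 7 were higher and 1 lower, then 4 and 6, and then 4 and 6. The 4 called higher in the second and in the third were each 30.8% of the list, near the shares of all rows. Capza3, the sperm form of a capping protein subunit, rose from 20.3 and 20.9 to 295 and 343 CPM (log2 fold change 4.16 ± 0.19) into round spermatid-like cells. Capzb, its partner, rose from 165 and 181 to 609 and 651 CPM (log2 fold change 2.67 ± 0.16) into elongating or condensing cells. Among the larger number called lower, Actr1a fell from 159 and 148 to 61.3 and 63.1 CPM (log2 fold change -1.10 ± 0.14) into round spermatid-like cells. Dctn6 fell from 77.8 and 75.1 to 7.24 and 5.39 CPM (log2 fold change -2.79 ± 0.19) into elongating or condensing cells. Of 17 regulators and adaptors of dynein-1 tested, 5 were higher and 4 lower, then 3 and 9, and then 5 and 5. In the first comparison these were 29.4% and 23.5% of the list, and 29.4% were higher in the third, all near the shares of all rows. Hook2 rose from 18.3 and 20.6 to 216 and 224 CPM (log2 fold change 3.83 ± 0.20) between the spermatocyte classes. Ninl, among the 9 called lower in the second comparison, fell from 45.6 and 50.3 to 4.62 and 4.10 CPM (log2 fold change -3.26 ± 0.20). Hook1, a linker of dynein to cargo needed for sperm head shape, rose from 143 and 188 to 758 and 870.0 CPM (log2 fold change 3.10 ± 0.17) in the last comparison. Dync1h1, Dync1i2 and Dync1li2 were all lower in that comparison.

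Within the spermatids, a further fit with the 6 steps as separate classes placed the changes. From step 3 to step 4, 10 dynein genes were called higher and 18 lower, against 25.7% and 20.1% of the 14144 rows tested. The 10 called higher were 25.6% of the 39 dynein genes tested, near the share of all rows. Dnah9 (2.99), Dynlt3 (2.80) and Dynll2 (1.63) had the highest log2 fold changes and Dnaic2 (-2.47) and Dnaaf5 (-1.77) the lowest among genes with at least 500 UMIs. From step 4 to step 5, 6 were higher and 20 lower, against 23.3% and 20.5% of rows, with Dnah10 (-2.85) and Dync2li1 (-2.08) at the low end. From step 5 to step 6, 3 were higher and 15 lower, against 16.2% and 23.5%. The 3 were Dynll1 (0.95), Dynll2 (0.77) and Dnali1 (0.41), and the lowest folds were those of Dnah9 (-2.80) and Dnah3 (-2.71). These folds include TMM factors, and the 6-step fit was not run without them. By CPM, which has no such factors, Dynll1 and Dynll2 were also higher in step 6 than in step 5 of both mice, but Dnali1 was lower in both. The classes were cut after the clusters had been seen. Markers of other cell types moved with some of these steps. The 15 Sertoli markers summed to 169 and 60.3 CPM in step 1. The 8 macrophage markers summed to 0.916 and 2.48 CPM in step 1 and to 34.4 and 41.7 CPM in step 6. The 5 haemoglobin and erythroid genes summed to 263 CPM in step 2 and 178 CPM in step 6 of mouse 2, against 3.36 and 10.5 CPM in mouse 1. Their part in the results was not tested.

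Dynlrb1, Dync1i1, Dync1li1, Dnah5, Dnah11 and Dnah2os had under 500 UMIs and are given here in the sums, and those of them that could be tested also in the counts of calls. Some further values of Dynlrb1 and Dnah5 are given as description only.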

How the data were processed

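Single-cell libraries of 2 mice were made with the Chromium 3′ v2 kit. The authors demultiplexed reads with Cell Ranger 2.0.0 and bcl2fastq 2.17.1.14 and counted them against a repeat-masked GRCm38 genome (Ensembl annotation, mm10 in the labels) with repeat sequences added. They merged the mice after downsampling reads to an equal mean per cell, and the deposited table gives raw UMI counts for each gene in each cell with no further normalization. Library totals were 27450497 and 30302332 UMIs, with medians of 17871 and 19184 per cell, and the 2552 cells were all kept. Intervals and shares cover counting error only.

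Cells were assigned to mice by the number ending each barcode. Counts were scaled to the median total, transformed to log2 of 1 plus the value and centred and scaled per row. K-means (K = 9, 10 restarts, seed 42) was run on 10 components of 27679 rows, leaving out 111 rows of dynein and related genes. A cluster took the class with the highest marker score where at least 3 markers had 1.5 times the CPM of all cells. Scrublet called 25 doublets (0.98%), which were kept. UMIs were summed per mouse over 4 classes and tested as 8 sums in 1 fit, in place of the 10 foreseen, because each large cluster received a name. The test was edgeR 4.0.16 (glmQLFit, glmQLFTest, TMM, filterByExpr) in R 4.3.3, with Benjamini-Hochberg adjustment over all rows tested, and was tested on simulated data. Each SE was derived as the absolute log2 fold change divided by the square root of the test's F statistic. The 6-step fit was added after the clusters had been seen. P-values rest on 2 mice of 1 group and measure the spread between these libraries. Sums with the same number come from the same animal. Deviations from the class means correlated between classes of a mouse at 0.04 to 0.23 over 15083 rows, and a replicate block was fitted as an alternative. Other alternatives were DESeq2 1.42.0, total UMIs without TMM, no filter, K = 8 and K = 10, Leiden clusters, clustering without repeat rows, leaving out doublets, each mouse alone, UMIs per cell, thinning to 5000 UMIs, 10 bins and 20 components. Python 3.11.15 with scanpy 1.11.5, scikit-learn 1.9.0, scipy 1.17.1 and matplotlib 3.10.9 was used.

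Members with at least 500 UMIs were named with values, and up to 2 genes with the lowest adjusted p in each direction were eligible for each related list. The members and lists were chosen with earlier results of these data known. Gene positions are from the GENCODE annotation of GRCm38. Reads and the authors' table of cell types were not used here.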

Additional observations from a re-analysis of the deposited data

How the results depend on the processing

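The dynein genes called higher and lower in the class comparisons, from early to late, were 18 and 6, 12 and 17, 7 and 26. The shares of all rows were 26.6% and 21.7%, 36.7% and 32.9%, 27.7% and 36.7%. With total UMIs alone the dynein counts were 14 and 10, 12 and 21, 4 and 31. The shares of all rows were then 19% and 30.5%, 33.6% and 40.1%, 18.1% and 56.7%. Shares under the other settings are not given here. Without a filter the dynein counts were 21 and 3, 12 and 16, 7 and 26. With the replicate block they were 22 and 6, 12 and 17, 8 and 26, so that no count moved by over 1.5 times, and 5 named genes were called in addition and none lost. DESeq2, K = 8, K = 10, Leiden clusters, clustering without repeat rows, sums without doublets, and step 3 kept out of the round class left each count within 1.5 times. Doublets were left out of the sums only, and the clusters were not made anew without them. The median log2 fold over the 39 genes was 0.57, -0.22 and -1.35. It was 0.22, -0.42 and -2.15 by total UMIs, 0.34, -0.15 and -0.97 with DESeq2, 0.65, -0.17 and -1.43 without a filter, 0.57, -0.33 and -1.64 with Leiden clusters, 0.67, -0.21 and -1.37 with K = 8, 0.58, -0.22 and -1.36 without repeat rows, 0.50, -0.21 and -1.36 without doublets, 0.49, -0.47 and -0.85 with step 3 kept apart (chosen after seeing the data) and 0.91, -1.08 and -2.54 by UMIs per cell. Each mouse alone, a value with no test, gave 0.47 to 0.75, -0.21 to -0.20 and -1.34 to -1.33. No median changed sign.

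Of 1050 fits of the 35 named genes under other settings, 986 stayed called in the same direction or stayed not called, with either sign. Of the rest, 25 lost and 35 gained a call, and 4 changed sign with a call on either side. In elongating or condensing against round spermatid-like cells, Dnaaf3 went to -0.48 and Dnali1 to -0.20 by total UMIs, and Dnah8 to 0.065 and Dnaic2 to 0.026 with step 3 kept apart. By UMIs per cell, 87 of the 105 folds moved by more than the spread between mice and 15 did not. The other 3 were called folds that changed sign, Dnah17 (-0.36) and Dnali1 (-0.58) in the last comparison and Dnali1 (-0.18) in the second. Sign changes of folds that were not called were not listed apart from the 87 and the 15. Of these 105 folds, 100 with mouse 2 alone and 96 with mouse 1 alone stayed within the spread between mice. That spread was set by the same 2 values, so most folds were bound to stay within it and the counts do not measure stability. Called folds that a single mouse moved by over 1.5 times were the following. Mouse 2 alone gave 0.70 for Dnaaf5, 0.33 for Dnah14, 0.50 for Dynlrb2 and -0.45 for Dynll2 in the first comparison and -0.44 for Dynlt1b in the last. Mouse 1 alone gave 1.71 for Dnaaf5, 0.94 for Dnah14 and -0.27 for Dnah7c in the first. The summed dynein level was 131, 238, 152 and 105 UMIs per cell in the 4 classes, and by this measure 6 genes were highest in early spermatocyte-like cells, against 13 by mean CPM. Thinned to 5000 UMIs, the mean shares of cells with a UMI were 47.1% for Dnaic2 in step 2, 53.5% for Dnah3 in step 4, 60.1% for Dynlt3 in step 5 and 98.7% for Dynll2 in step 6. The cause of these differences was not tested. The alternative for clusters with close class scores equals the reported one, since no cluster met it, and is not counted. Calls of a single mouse could not be made, and genes under 500 UMIs are limited by depth.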

Other observations

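The 18 cells outside the spermatocyte-like and spermatid-like clusters were few. In the 7 spermatogonium-like cells, Dynll1 had 121 UMIs (1424 CPM, exact 95% Poisson interval 1182 to 1702), Dynll2 had 49, Dynlrb1 had 25 and Dync1i2 had 19. In the 6 Sertoli-like cells, Dynll1 had 81 UMIs (1242 CPM, 987 to 1544), Dynll2 had 42 and Dync1i2 had 26. In the 5 Leydig-like cells, Dynll2 had 31 UMIs (611 CPM, 415 to 868), Dynlrb1 had 19 and Dynll1 had 8. These cells are too few for a comparison between mice, and the intervals cover counting error only.

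Dnah5, a heavy chain of the outer arm of motile cilia, had 59 UMIs in all and was singled out after its values had been seen. Its level was 0.10 and 0.40 CPM in step 2, 1.86 and 1.65 CPM in step 4, 4.85 and 3.57 CPM in step 5 and 0.56 and 0.64 CPM in step 6. The rise from step 4 to step 5 passed the edgeR test (log2 fold change 1.74 ± 0.54), as did rises of 23.3% of all rows tested there. Since Dnah5 was picked on these same values, the pass gives no separate support for the rise.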
